A study of Homo sapiens with 18 samples.

Results

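The 10 inflammatory genes described here are tied to the transcription factor NF-kB and were followed in 2 human acute myeloid leukaemia cell lines exposed to decitabine (DAC) or NTX-301. They were the chemokines CXCL8, CXCL2 and CCL3, the cytokines IL1B and TNF, the inhibitors NFKBIA and TNFAIP3, and the NF-kB subunit genes NFKB1, NFKB2 and RELB. Each gene was taken by its symbol, giving 10 of the 19068 genes listed in the series. The set was chosen by the HL-60 values of CXCL8, which lay above the solvent control with DAC and below it with NTX-301, and the question was whether the other 9 genes did the same. These values are therefore a description and carry no test. All 10 genes were listed for HL-60. The MOLM-13 files listed 8, without CXCL2 and IL1B.

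RNA of HL-60 and MOLM-13 cells was measured by stranded total RNA sequencing after 48 h in dimethyl sulfoxide (DMSO, the solvent), DAC or NTX-301, with 3 samples in each of the 6 groups and 18 in all. DAC is a deoxycytidine analogue that is built into DNA and captures DNA methyltransferases there. NTX-301 inhibits the same enzymes. HL-60 cells received a stated 30 nM and MOLM-13 cells 15 nM. The labels do not say whether this holds for both drugs or for DAC alone, so a difference between drugs cannot be told apart from a difference in dose, nor one between lines from the concentration. HL-60 is a line with promyelocytic features. MOLM-13 is a monocytic line with a KMT2A-MLLT3 fusion and an internal tandem duplication in FLT3. Each group was plated as triplicate wells of 1 line, so p-values measure the spread between such samples, which may be technical.

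Values are the deposited log2 expression levels, and depth is unknown. The lines appear to have been normalized apart, so levels are compared within a line only. Of the myeloid markers CD33, SPI1, CEBPA, PTPRC and MPO, 5 of 5 were listed in both lines. Of 5 markers chosen for MOLM-13, HOXA9 and MEIS1, which KMT2A fusions keep active, were listed in MOLM-13 and not in HL-60. The other 3 (CSF1R, FLT3 and LYZ) were listed in both lines. So were all 6 markers chosen for HL-60 (AZU1, CTSG, ELANE, MPO, MYC and PRTN3). Markers of T cells, fibroblasts, epithelium and endothelium were at 0 listed genes in HL-60, and 1 of 4 B-cell markers (CD79A) was listed. MOLM-13 listed 1 of 4 markers of each of T cells, B cells, fibroblasts and epithelium, and 0 of 3 of endothelium.

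NF-kB dimers rest in the cytoplasm, bound by inhibitors such as IkB-alpha, the product of NFKBIA. Signals from receptors for TNF, interleukin 1 or microbial products lead to degradation of the inhibitor, and the freed dimers enter the nucleus and bind kappaB sites in promoters and enhancers. The targets include chemokines and cytokines, and also NFKBIA and TNFAIP3, which close the loop and end the signal. In myeloid cells CXCL8 (interleukin 8) draws neutrophils, and AP-1 and C/EBP factors act beside NF-kB at its promoter.

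The promoters of 5 members are shown: CXCL8, TNF, NFKBIA, TNFAIP3 and IL1B. CCL3 is not shown, though its range over the HL-60 samples (0.77) was wider than that of TNF (0.75). Each line holds the 250 bases before the RefSeq start site on GRCh38.p14, read 5′ to 3′ on the gene's strand. Capitals mark matches to a kappaB pattern or to the AP-1 pattern, on either strand. The kappaB searches used the pattern GGNNNTTCC and the longer kappaB consensus, whose matches overlap, and AP-1 was searched as TGANTCA. The CXCL8 stretch is chr4:73740319-73740568 (+), TNF is chr6:31575315-31575564 (+), NFKBIA is chr14:35404750-35404999 (-), TNFAIP3 is chr6:137867009-137867258 (+) and IL1B is chr2:112836780-112837029 (-).
CXCL8: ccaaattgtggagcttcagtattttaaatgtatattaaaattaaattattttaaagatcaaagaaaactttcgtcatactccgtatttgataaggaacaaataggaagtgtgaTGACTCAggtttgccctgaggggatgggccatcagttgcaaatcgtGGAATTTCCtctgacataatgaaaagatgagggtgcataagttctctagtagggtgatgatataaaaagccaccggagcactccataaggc
TNF: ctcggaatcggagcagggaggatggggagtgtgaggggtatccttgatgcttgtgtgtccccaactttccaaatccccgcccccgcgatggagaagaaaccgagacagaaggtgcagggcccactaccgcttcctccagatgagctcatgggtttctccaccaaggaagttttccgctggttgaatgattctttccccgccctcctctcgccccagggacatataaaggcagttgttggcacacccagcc
NFKBIA: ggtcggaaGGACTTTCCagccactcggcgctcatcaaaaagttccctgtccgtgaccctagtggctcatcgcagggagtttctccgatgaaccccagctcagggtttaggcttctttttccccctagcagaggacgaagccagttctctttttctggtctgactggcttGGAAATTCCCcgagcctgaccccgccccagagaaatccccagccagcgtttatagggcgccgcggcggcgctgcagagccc
TNFAIP3: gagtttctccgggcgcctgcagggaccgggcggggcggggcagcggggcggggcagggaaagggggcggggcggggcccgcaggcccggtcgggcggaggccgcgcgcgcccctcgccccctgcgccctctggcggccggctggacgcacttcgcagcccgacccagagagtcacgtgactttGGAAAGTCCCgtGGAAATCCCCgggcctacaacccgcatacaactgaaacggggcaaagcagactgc
IL1B: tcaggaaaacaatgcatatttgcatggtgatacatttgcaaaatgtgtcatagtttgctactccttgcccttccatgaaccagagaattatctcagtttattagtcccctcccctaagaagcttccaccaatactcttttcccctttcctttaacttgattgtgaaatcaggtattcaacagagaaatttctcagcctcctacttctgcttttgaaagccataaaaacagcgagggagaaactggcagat

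CXCL8 was the 1 member of 9 in the promoter table with an AP-1 match. It held GGAATTTCC at bases -91 to -83 and TGACTCA at -137 to -131, counted from the start site. TNF and IL1B held neither pattern in this window. CCL3 held neither in any of its windows. NFKBIA held GGACTTTCC at -242 to -234 and GGAAATTCC at -81 to -73, and TNFAIP3 held a pair of matches on the opposite strand, at -67 to -59 and -55 to -47. Including CXCL2, NFKB1 and NFKB2, the pattern GGNNNTTCC was present in 6 of the 9 members. A member was counted if any of its windows matched, and NFKB1, NFKB2 and CCL3 had more than 1 start site. This count by gene is therefore not like the shares of single windows that follow. Of 34796 distinct promoter windows of 300 bases (250 before and 50 after the start), 20.0% held GGNNNTTCC, 11.3% the kappaB consensus and 7.7% TGANTCA. The TATA box TATAAA was searched on the gene's strand. It was in the windows of CXCL8 and TNF, in 1 window of CCL3 and in 7.4% of all windows. The members also differed in CpG sites, the positions at which DNA methyltransferases act. IL1B had 2, CXCL8 4, TNF 11, NFKBIA 22 and TNFAIP3 35 in their windows, against a median of 14 and quartiles of 4 and 28 over all windows. Methylation was not measured, and a match is a run of letters, not a bound site.

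In HL-60 the chemokine CXCL8 was the member with the widest range. Its DMSO samples read 14.37, 14.26 and 14.27, its DAC samples 14.67, 14.66 and 14.75, and its NTX-301 samples 13.30, 13.35 and 13.24 (log2). The order was DAC, then DMSO, then NTX-301, and no group overlapped another. DAC lay 0.39 above DMSO on the log2 scale (limma SE 0.0349), a ratio of 1.31, and NTX-301 differed from it by -1.001 with the same SE, a ratio of 0.50. Its range over the 9 HL-60 samples was 1.51, against a median of 0.15 for the 590 genes within 0.5 of its mean level.

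TNF was the member that moved as CXCL8 did. TNF is a cytokine that is both a product and an activator of NF-kB. Its HL-60 values were 12.30, 12.21 and 12.29 with DMSO, 12.46, 12.42 and 12.54 with DAC, and 11.81, 11.87 and 11.79 with NTX-301. All DAC samples lay above all DMSO samples and all NTX-301 samples below them. TNF rose with DAC by 0.21 (SE 0.0345, limma adjusted p = 0.000594, n = 3 each) and fell with NTX-301 by 0.44 (a difference of -0.44, SE 0.0345, limma adjusted p = 2.64e-07), a ratio of 0.736. Both changes were smaller than those of CXCL8.

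Neither of the other chemokines among the members fell with NTX-301 in HL-60. CCL3, which draws monocytes and other leukocytes, read 7.47, 7.44 and 7.56 with DMSO, 8.18, 8.20 and 8.21 with DAC, and 7.83, 7.91 and 7.73 with NTX-301. The groups did not overlap, and both drugs stood above DMSO, DAC the higher. CCL3 rose with DAC by 0.71 (SE 0.0481, limma adjusted p = 1.55e-07), a 1.63-fold increase, and with NTX-301 by 0.34 (SE 0.0481, limma adjusted p = 7.76e-05). CCL3L3, a near-identical copy, was listed beside it with HL-60 means of 6.46, 6.70 and 6.56 in the same order of groups, so the split of reads between the copies is uncertain. CXCL2, another neutrophil chemokine, lay between 4.95 and 5.04 in all 9 samples and passed the test with neither drug: 0.03 with each (limma adjusted p = 0.295 for DAC and 0.247 for NTX-301). At that level the deposited values vary little: the median range of the 1256 genes within 0.5 of its mean was 0.10.

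IL1B, the gene of interleukin 1 beta, went the opposite way to CXCL8 with NTX-301. Its HL-60 samples read 7.55, 7.54 and 7.63 with DMSO, 7.56, 7.63 and 7.56 with DAC, and 8.04, 8.004 and 8.20 with NTX-301. The DAC and DMSO samples overlapped, and the NTX-301 samples stood above both. IL1B rose with NTX-301 by 0.50 (SE 0.0497, limma adjusted p = 2.53e-06), a 1.42-fold increase. With DAC the difference was 0.01 (95% interval -0.10 to 0.12, limma adjusted p = 0.921).

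The inhibitors moved apart from each other. NFKBIA, which encodes IkB-alpha, read 11.31, 11.33 and 11.25 with DMSO, 11.12, 11.06 and 11.07 with DAC, and 10.65, 10.63 and 10.66 with NTX-301. It was lower with both drugs and lowest with NTX-301, with no overlap. NFKBIA fell with DAC by 0.21 (a difference of -0.21, SE 0.0283, limma adjusted p = 0.000105) and with NTX-301 by 0.65 (-0.65, limma adjusted p = 8.33e-10), a ratio of 0.637. TNFAIP3 encodes A20, a ubiquitin-editing enzyme that shuts off signals upstream of the kinase complex. Its values were 10.58, 10.51 and 10.59 with DMSO, 10.83, 10.88 and 10.83 with DAC, and 11.02, 11.02 and 11.01 with NTX-301. Here the order was reversed: TNFAIP3 rose with DAC by 0.29 (SE 0.0299, limma adjusted p = 1.19e-05) and with NTX-301 by 0.46 (SE 0.0299, limma adjusted p = 5e-08), a 1.37-fold increase. Both genes carry kappaB matches in the promoters shown, and their transcripts moved in opposite directions with each drug.

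Of the subunit genes, NFKB2 was called with both drugs, RELB with DAC and NFKB1 with neither. NFKB1, which encodes p105 and its product p50, lay between 12.09 and 12.17 in HL-60, and its differences of -0.04 with DAC and -0.03 with NTX-301 did not pass the test (limma adjusted p = 0.201 and 0.415). NFKB2, which encodes p100 and p52 of the non-canonical branch, rose with DAC by 0.26 (SE 0.0438, limma adjusted p = 0.000697) and with NTX-301 by 0.19 (limma adjusted p = 0.00386). Quantile normalization ended the NFKB2 call for NTX-301 (0.12, limma adjusted p = 0.0559). RELB, the partner of p52, rose with DAC by 0.12 (SE 0.0389, limma adjusted p = 0.0344), and with NTX-301 the difference of 0.09 did not pass (limma adjusted p = 0.0811). The RELB call for DAC was lost when any 1 of 5 samples was left out (DMSO replicates 1 and 3 and DAC replicates 1, 2 and 3), with limma adjusted p between 0.0697 and 0.12 and a smallest difference of 0.09. It was also lost under quantile normalization (0.07, limma adjusted p = 0.205) and with a pseudocount of 10 (0.12, 0.0534). The RELB difference for NTX-301 passed without DMSO replicate 2 (0.12, limma adjusted p = 0.0473) and without the mean-variance trend (0.09, 0.0368).

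**Figure D1:**
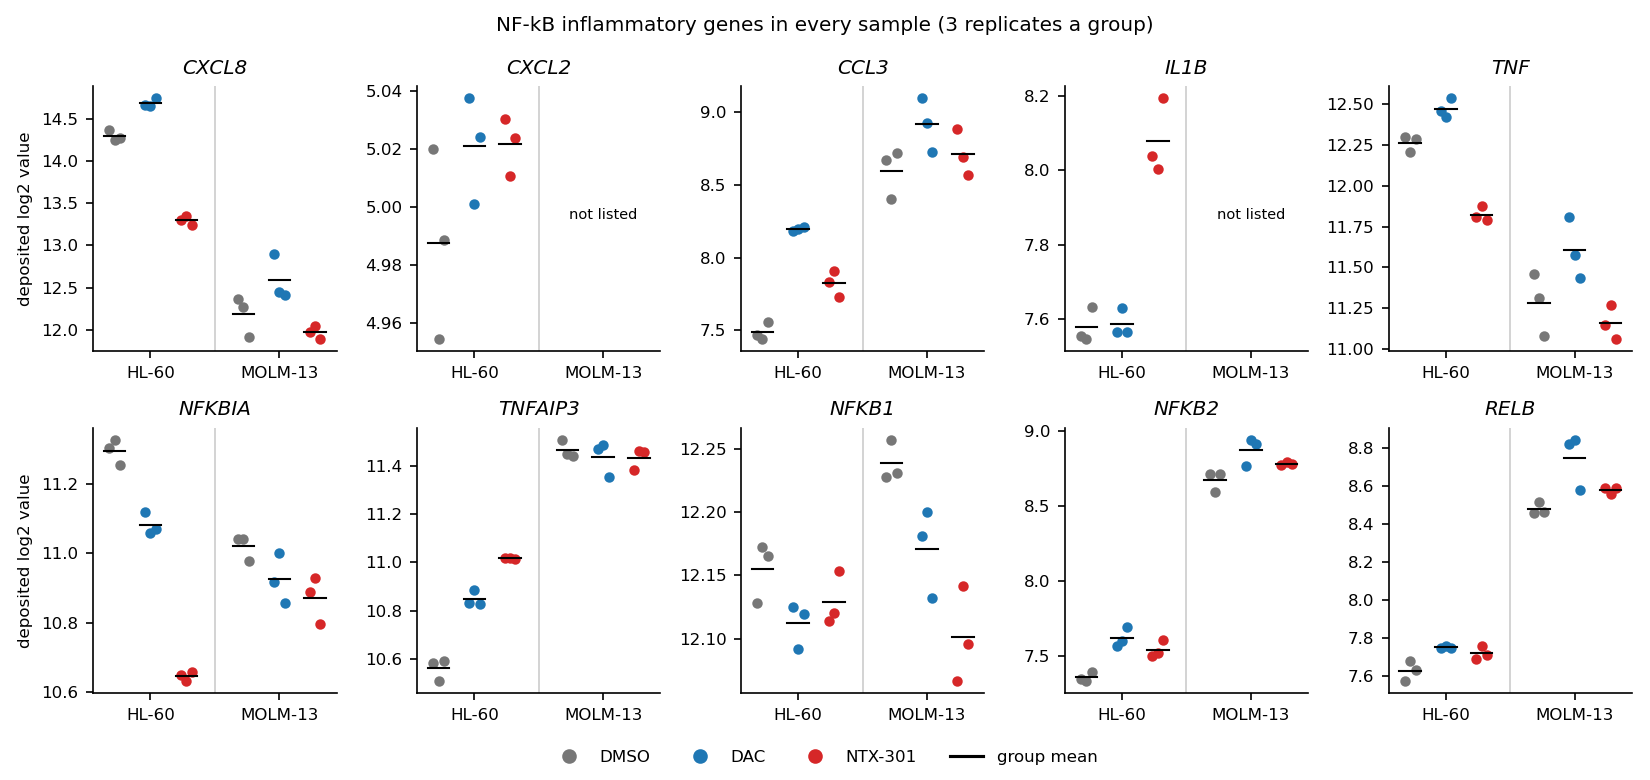
Deposited log2 value of each gene in each sample (vertical axis, a separate scale for each gene), with HL-60 on the left and MOLM-13 on the right of each panel. Points are single samples coloured by treatment and bars are group means of 3. In HL-60 both CXCL8 and TNF place NTX-301 below DMSO and DAC above it, while TNFAIP3 rises from DMSO over DAC to NTX-301 and NFKBIA falls.

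Counted over the 9 members other than CXCL8, DAC raised 5 and lowered 1 in HL-60, with 3 not called, where a call is a limma adjusted p under 0.05. Of all 17046 genes tested, 24.2% were called, 11.6% higher and 12.6% lower. NTX-301 raised 4 (CCL3, IL1B, TNFAIP3, NFKB2) and lowered 2 (TNF, NFKBIA), where 37.4% of all genes were called, 18.3% higher and 19.2% lower. The median difference of the 9 was 0.12 with DAC and 0.09 with NTX-301, and that of all genes was 0.00064 and 0.00082. TNF alone among the 9 was called higher with DAC and lower with NTX-301. CCL3, TNFAIP3 and NFKB2 were called higher with both drugs and NFKBIA lower with both. The contrasts with DMSO share the DMSO samples.

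Set directly against each other in HL-60, the drugs differed at 5 of the 9 members. NTX-301 was lower than DAC for TNF (-0.65, SE 0.0345, limma adjusted p = 1.41e-08), NFKBIA (-0.44, limma adjusted p = 8.81e-08) and CCL3 (-0.37, limma adjusted p = 5.01e-05). It was higher for IL1B (0.49, limma adjusted p = 5.14e-06) and TNFAIP3 (0.17, limma adjusted p = 0.000644). Over all genes 30.4% were called in this comparison, 15.4% higher and 15.0% lower. For CXCL2, NFKB1, NFKB2 and RELB the limma adjusted p lay between 0.224 and 0.987, and the 95% intervals together ran from -0.17 to 0.07. The median of the 9 differences was -0.03, and that of all genes 0.00045. CXCL8 itself lay 1.39 lower with NTX-301 than with DAC (-1.39, a ratio of 0.381).

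In MOLM-13, whose CXCL8 values did not enter the choice of genes, CXCL8 was higher with DAC and did not pass the test with NTX-301. The DMSO samples read 12.37, 12.27 and 11.91, the DAC samples 12.90, 12.45 and 12.41, and the NTX-301 samples 11.98, 12.05 and 11.89. All DAC samples lay above all DMSO samples, and the NTX-301 samples overlapped them. CXCL8 rose with DAC by 0.41 (SE 0.128, limma adjusted p = 0.027), a 1.32-fold increase. The NTX-301 difference was -0.21 (95% interval -0.49 to 0.07, limma adjusted p = 0.195). Both results turned on single samples: without DAC replicate 1 the DAC difference was 0.25 (limma adjusted p = 0.0836) and without DMSO replicate 3 it was 0.27 (0.111), while without DMSO replicate 3 the NTX-301 difference was -0.35 (limma adjusted p = 0.0355). The DAC call was also lost without a mean-variance trend (limma adjusted p = 0.0763), with only the groups compared in the fit (0.0549) and with a pseudocount of 10 (0.0511).

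TNF in MOLM-13 read 11.46, 11.31 and 11.08 with DMSO, 11.81, 11.58 and 11.43 with DAC, and 11.15, 11.27 and 11.06 with NTX-301. The groups overlapped in both contrasts with DMSO. TNF rose with DAC by 0.32 (SE 0.10, limma adjusted p = 0.0249), a call lost without DMSO replicate 2 (0.34, limma adjusted p = 0.0509), DMSO replicate 3 (0.22, 0.104) or DAC replicate 1 (0.22, 0.0886), and without the mean-variance trend (0.069). With NTX-301 the difference was -0.13 (95% interval -0.35 to 0.09, limma adjusted p = 0.333).

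Of the remaining members in MOLM-13, 3 rose with DAC. CCL3 rose by 0.32 (limma adjusted p = 0.0377), NFKB2 by 0.20 (0.0147) and RELB by 0.27 (SE 0.0665, 0.00813). The CCL3 call was lost without DMSO replicate 2, DAC replicate 1 or DAC replicate 2 (0.22, 0.23 and 0.32), and under quantile normalization (0.24), no mean-variance trend or a pseudocount of 10. The NFKB2 call was lost without DMSO replicate 2, DAC replicate 2 or DAC replicate 3 (0.16, 0.17 and 0.18) and under quantile normalization (0.14, limma adjusted p = 0.0695), which also ended that of RELB (0.19, limma adjusted p = 0.062). CCL3L3 was listed in MOLM-13 too, with means of 8.71, 8.997 and 8.81 for DMSO, DAC and NTX-301. With NTX-301 none of these 3 genes passed, and NFKBIA and NFKB1 fell. NFKBIA fell by 0.15 (a difference of -0.15, limma adjusted p = 0.0169) and NFKB1 by 0.14 (-0.14, SE 0.0282, limma adjusted p = 0.00192). The NFKBIA call was lost without DMSO replicate 2 (-0.14, limma adjusted p = 0.0554), without NTX-301 replicate 3 (-0.11, 0.0765) and under quantile normalization (-0.11, 0.0869), which also ended the NFKB1 call (-0.06, limma adjusted p = 0.0862). With DAC, NFKBIA and NFKB1 differed by -0.10 and -0.07 (limma adjusted p = 0.119 and 0.0823). Both passed when each sample was centred on its median (-0.13 and -0.10, limma adjusted p = 0.0223 and 0.0114), and NFKBIA passed without DAC replicate 2 (-0.13, 0.044). TNFAIP3 lay between 11.35 and 11.51 in all 9 samples, with differences of -0.03 for both drugs (95% intervals -0.12 to 0.06 for each).

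**Figure D2:**
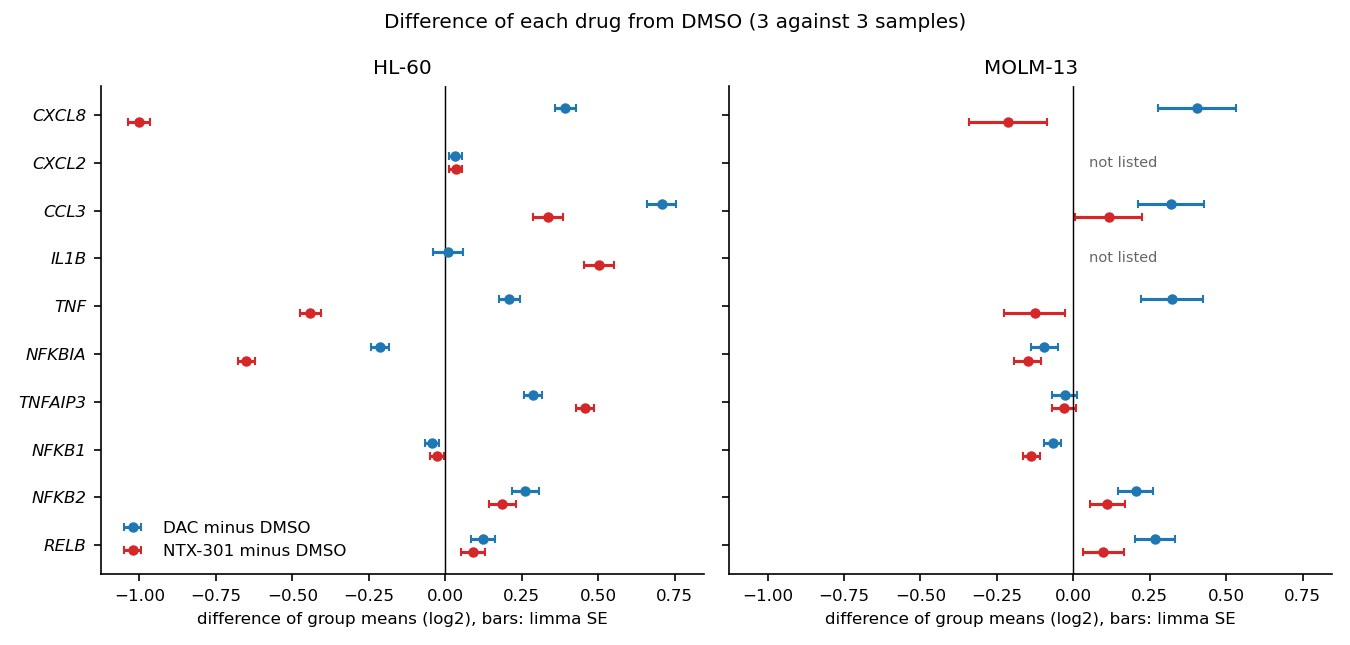
Difference of the mean log2 value of each drug from DMSO (horizontal axis, 3 against 3 samples), by gene and line, with the limma standard error as the bar. NTX-301 stands apart from DAC for CXCL8 and TNF in both lines, and the NFKBIA and TNFAIP3 differences in HL-60 shrink to between -0.15 and -0.03 in MOLM-13.

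Of the 8 members in MOLM-13, DAC raised 5 and lowered 0, and NTX-301 raised 0 and lowered 2. Over all 17475 genes, 36.6% were called with DAC (15.4% higher, 21.2% lower) and 45.1% with NTX-301 (20.3% higher, 24.8% lower). Behind the counts of 0, limma gave 1 member lower with DAC (NFKB1) and 0 higher with NTX-301 at an unadjusted p under 0.05. The median difference of the 8 was 0.24 with DAC and -0.08 with NTX-301, beside 0.0013 and 0.0034 over all genes.

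NTX-301 against DAC called 2 of the 8 members in MOLM-13, CXCL8 and TNF, both lower, where 7.42% of all genes were called, 4.41% lower and 3.01% higher. The all-gene count of 1297 fell to 767 without DAC replicate 1, 479 without NTX-301 replicate 2 and 462 without NTX-301 replicate 3. CXCL8 was lower by 0.62 (a difference of -0.62, SE 0.128, limma adjusted p = 0.0151), a ratio of 0.651. TNF was lower by 0.45 (-0.45, SE 0.10, limma adjusted p = 0.0216), a ratio of 0.733. Neither gene's NTX-301 samples overlapped its DAC samples. The CXCL8 call was lost without NTX-301 replicate 3 (-0.58, limma adjusted p = 0.0663). The TNF call was lost without DAC replicate 1 (-0.35, 0.0639), NTX-301 replicate 1 (-0.44, 0.0604) or NTX-301 replicate 3 (-0.40, 0.0922). Both were lost without a mean-variance trend (limma adjusted p = 0.0569 and 0.068). The other 6 members had limma adjusted p between 0.153 and 0.982, with 95% intervals that together ran from -0.44 to 0.08. RELB passed without DAC replicate 3 (-0.25, limma adjusted p = 0.0225). The median of the 8 was -0.13, beside 0.00012 over all genes.

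**Figure D3:**
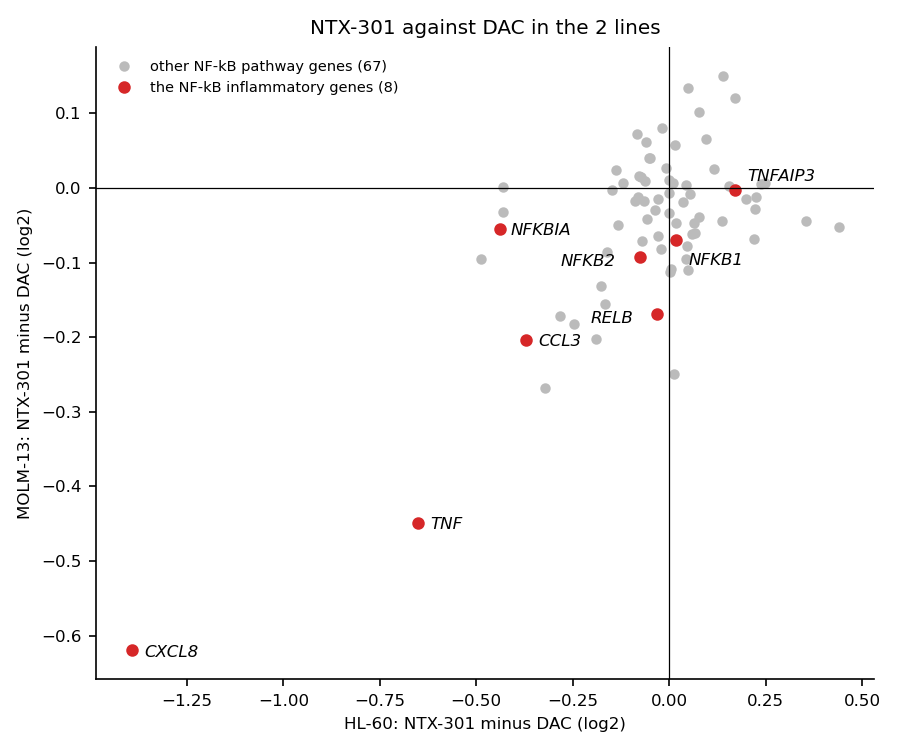
NTX-301 minus DAC on the log2 scale in HL-60 (horizontal axis) and in MOLM-13 (vertical axis) for the 8 members (red) and 67 other NF-kB pathway genes (grey) listed in both lines. CXCL8 at -1.39 and -0.62 and TNF at -0.65 and -0.45 lie lowest among the genes plotted on both axes (CCL4 was not listed in MOLM-13 and is not shown), and TNFAIP3 is at 0.17 on the HL-60 axis and at -0.0024 on the other.

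Whether the effect of a drug differed between the lines was tested for the 7 members other than CXCL8 listed in both. For NTX-301 the effect differed at 4, where 40.0% of all 15474 genes were called. The effect on NFKBIA was 0.50 higher in MOLM-13 than in HL-60 (SE 0.0535, limma adjusted p = 5.86e-07) and that on TNFAIP3 0.49 lower (-0.49, SE 0.0501, limma adjusted p = 3.44e-07). The effect on TNF was 0.32 higher (limma adjusted p = 0.0375) and that on NFKB1 0.11 lower (-0.11, limma adjusted p = 0.0152). For DAC it differed at 2, where 30.0% of all genes were called: TNFAIP3 was 0.32 lower in MOLM-13 (-0.32, SE 0.0501, limma adjusted p = 9.19e-05) and CCL3 0.39 lower (-0.39, SE 0.128, limma adjusted p = 0.0275). The calls of TNFAIP3, NFKBIA and NFKB1 held in each of the 18 fits lacking 1 sample. The CCL3 call was lost in 6 of them, without HL-60 DMSO replicate 1 or 2, HL-60 DAC replicate 3, MOLM-13 DMSO replicate 1 or 3 or MOLM-13 DAC replicate 3, with a smallest difference of -0.29. The TNF call was lost in 7, without replicate 1 or 3 of HL-60 DMSO or HL-60 NTX-301, MOLM-13 DMSO replicate 3 or MOLM-13 NTX-301 replicate 1 or 2, with a smallest difference of 0.21, and also without the mean-variance trend (limma adjusted p = 0.0687) and with a pseudocount of 10 (0.0555). Quantile normalization ended the NFKB1 call (-0.06, limma adjusted p = 0.149).

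CXCL8 and TNF also moved together among replicates of 1 treatment, which the choice of genes did not use. In each of the 6 groups the sample with the highest CXCL8 had the highest TNF, and the sample with the lowest CXCL8 the lowest TNF. Across the 9 deviations from group means, Pearson's r was 0.831 in HL-60 and 0.952 in MOLM-13. TNF was the 1 gene of 15473 tested in both lines whose replicates followed the order of CXCL8 in 6 of 6 groups. This was noticed after the values were seen, and it has no test. CCL3 followed the order in 2 of 6 groups, NFKBIA and TNFAIP3 in 1 each, and NFKB1, NFKB2 and RELB in 0.

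**Figure D4:**
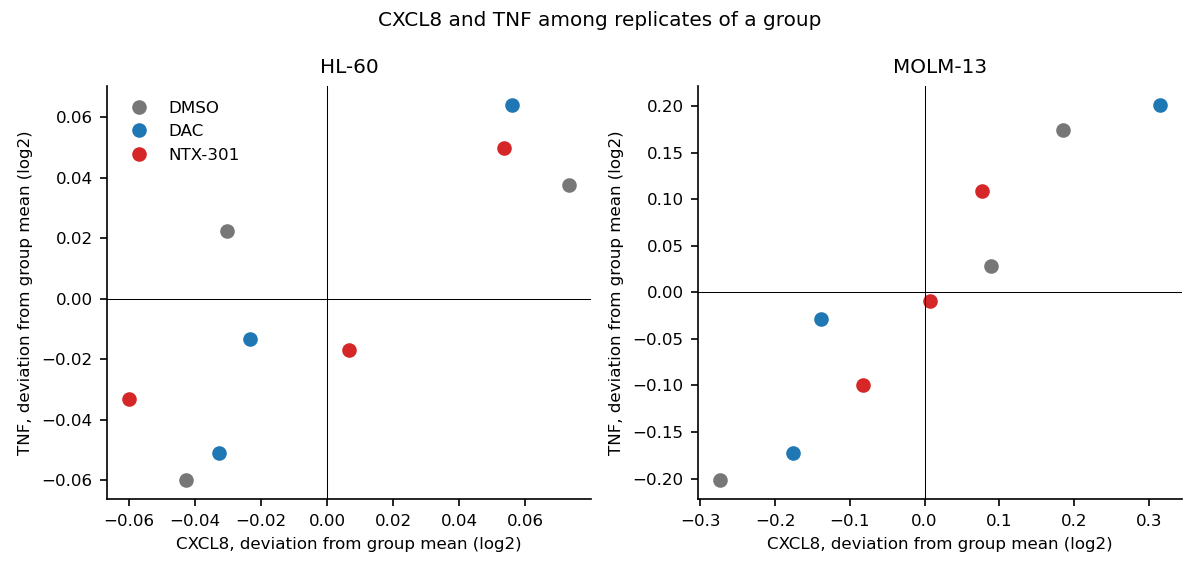
Deviation of each sample from its group mean (log2) for CXCL8 (horizontal axis) and TNF (vertical axis), with a separate scale for each line and colour for treatment. The points rise together in both panels (r = 0.831 and 0.952 over 9 samples each), over deviations within 0.08 in HL-60 and up to 0.32 in MOLM-13.

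The genes whose pattern was most like that of CXCL8 were ranked by Pearson's r, with no test, since the samples share their libraries and treatments. Over all 18 samples with the mean of each line removed, 1063 genes had a range of at least 0.5 in 1 line or both. PMAIP1, which encodes the death-promoting BCL2-family protein NOXA, stood first (r = 0.984), followed by TNF (0.968), the myeloid lectin receptor CLEC12A (0.959), the granule proteoglycan serglycin, SRGN (0.948), and the cystine transporter SLC7A11 (0.940). PMAIP1 had HL-60 means of 12.92, 13.13 and 12.49 with DMSO, DAC and NTX-301, the same order as CXCL8. Over the 9 HL-60 samples, with 535 genes ranked, the leaders were TNF (0.994), PMAIP1 (0.991), SRGN (0.990), the lectin receptor CLEC5A (0.989) and the transcriptional repressor BCL6 (0.985). Among the members, r with CXCL8 in HL-60 and MOLM-13 was 0.82 and 0.25 for NFKBIA, 0.30 and 0.55 for CCL3, -0.58 and 0.22 for TNFAIP3 and -0.02 and 0.64 for RELB, and in HL-60 it was -0.94 for IL1B.

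Other genes of the pathway were read from a list of 90, of which 70 were tested in HL-60 and 75 in MOLM-13. In HL-60 DAC raised 16 and lowered 9 (median 0.03; 2 lower without DMSO replicate 3 and 4 without DAC replicate 2), and NTX-301 raised 23 and lowered 16 (median 0.03). In MOLM-13 DAC raised 25 and lowered 7 (median 0.06), and NTX-301 raised 17 and lowered 13 (median 0.04). The medians over all genes and the shares called are those given above. By role, the downstream target genes gave 6 higher and 1 lower of 13 with DAC in HL-60, and 10 higher and 3 lower of 17 in MOLM-13. With NTX-301 the target genes gave 5 higher and 2 lower in HL-60, and 5 higher and 5 lower in MOLM-13. The 22 adaptors and kinases gave 4 higher and 4 lower with DAC in HL-60, and 3 and 6 with NTX-301.

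Among the pathway genes in HL-60, the highest with DAC were PTGS2, the inducible cyclooxygenase (0.78, SE 0.0492, limma adjusted p = 6.71e-08), the chemokine CCL4 (0.73, SE 0.0398, 1.57e-08) and the microbial sensors TLR1 (0.29) and TLR4 (0.25). CCL4 has a near-identical copy, CCL4L2, with HL-60 means of 8.73, 9.36 and 8.70, so its reads may be split as those of CCL3. The lowest with DAC were the B-cell survival cytokine TNFSF13B (-0.32), the TNF receptor TNFRSF1A (-0.17), the factor IRF1 (-0.14) and the lymphotoxin receptor LTBR (-0.13). The IRF1 call was lost without DMSO replicate 3 (-0.12, limma adjusted p = 0.0533) or DAC replicate 2 (-0.11, 0.0629), and the LTBR call without DMSO replicate 3 (-0.10, 0.0653) or DAC replicate 3 (-0.11, 0.0605). With NTX-301 the highest were TNFAIP2 (0.59, limma adjusted p = 1.82e-08), a gene induced by TNF, then TLR1 (0.54), the CCL3 receptor CCR1 (0.39) and the adaptor TRAF1 (0.32). TNFSF13B (-0.49), the nuclear IkB protein gene NFKBID (-0.47), LTBR (-0.38) and the kinase IRAK1 (-0.29) were lowest. Between the drugs CCL4 (-0.84, limma adjusted p = 5.33e-09), PTGS2 (-0.49), TLR4 (-0.43) and NFKBID (-0.43) were lower with NTX-301, and TNFAIP2 (0.44), CCR1 (0.35), TLR1 (0.25) and the RNase gene ZC3H12A (0.24) were higher. With DMSO, DAC and NTX-301 the means were 9.20, 9.93 and 9.09 for CCL4 and 12.50, 12.75 and 12.31 for TLR4. Both had the order of CXCL8, while PTGS2 and NFKBID did not. The NTX-301 differences of CCL4 and TLR4 from DMSO were not among the 4 lowest named. In that comparison 16 of the 70 were called higher and 19 lower, with a median of 0.00029. The shares over all genes were 15.4% higher and 15.0% lower.

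In MOLM-13 TLR1 and TNFAIP2 rose with both drugs, TLR1 by 0.49 with each (limma adjusted p = 5.11e-06 for DAC and 2.69e-06 for NTX-301) and TNFAIP2 by 0.41 and 0.36. IER3, an early response gene (0.48), and the hexose transporter SLC2A6 (0.40) were also among the highest with DAC, and TLR6 (0.35) and the chemokine CCL5 (0.34) with NTX-301. The adaptor TRAF2 fell by 0.24 and 0.35 (-0.24 and -0.35), the urokinase receptor PLAUR by 0.20 and 0.33 (-0.20 and -0.33) and the mitochondrial superoxide dismutase SOD2 by 0.18 and 0.25 (-0.18 and -0.25) with DAC and NTX-301. CHUK, the IKK-alpha kinase, was among the lowest with DAC (-0.13, a call lost under quantile normalization at -0.07, limma adjusted p = 0.12), and TNIP2, an A20 partner, with NTX-301 (-0.26). NTX-301 against DAC called 8 of 75 lower and 0 higher (median -0.03), where 4.41% of all genes were called lower and 3.01% higher. At an unadjusted limma p under 0.05, 17 were lower and 7 higher. The lowest were IER3 (-0.30, limma adjusted p = 0.0494), the urokinase gene PLAU (-0.27, 0.000616), the kinase IRAK2 (-0.25, 0.0377) and TNIP2 (-0.20, 0.00848). With each of the 9 samples left out in turn, the IER3 call was lost 7 times and the IRAK2 call 6 times, with smallest differences of -0.22 and -0.20, both without DAC replicate 1. A pseudocount of 10 ended both calls (limma adjusted p = 0.0829 for IER3 and 0.0517 for IRAK2), and quantile normalization (0.062) and the fit without a trend (0.0961) ended that of IER3.

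Of 9 AP-1 and EGR factors in HL-60, 5 were called lower with NTX-301, 1 higher and 3 not called, where 19.2% of all genes were called lower and 18.3% higher. Their median difference was -0.15, beside 0.00082 over all genes. EGR1 fell by 0.97 (-0.97, SE 0.0362, limma adjusted p = 2.13e-10) and FOS by 0.94 (-0.94, SE 0.0353, limma adjusted p = 2.29e-10), changes close in size to that of CXCL8. With DAC in HL-60, 2 of the 9 were called higher and 3 lower, where 11.6% of all genes were called higher and 12.6% lower. Their median difference was -0.08, beside 0.00064 over all genes. Unlike CXCL8, FOS and FOSB fell with DAC, by 0.36 and 0.46 (-0.36 and -0.46, limma adjusted p = 6.36e-06 and 0.00029), and EGR1 did not pass with DAC (-0.06, limma adjusted p = 0.236). In MOLM-13 DAC raised 5 of the 9 and lowered 0 (1 at an unadjusted limma p under 0.05), and NTX-301 raised 3 and lowered 1. Their medians there were 0.17 and 0.16, beside 0.0013 and 0.0034 over all genes. With DAC 15.4% of all genes were called higher and 21.2% lower, and with NTX-301 20.3% and 24.8%. Among these factors EGR1 fell with NTX-301 by 0.54 (-0.54, limma adjusted p = 0.000154), while JUN (0.46) and FOSL2 (0.16) rose with DAC and ATF3 (0.42) with NTX-301. FOS, looked up in MOLM-13 after its HL-60 values were seen, rose there with DAC by 0.60 (limma adjusted p = 0.00583), from 13.90 ± 0.35 to 14.51 ± 0.18 (mean ± SD, n = 3).

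Of 12 markers of monocyte and macrophage maturation, the summed level of those listed stood higher with both drugs in both lines, though not each marker did. The sums are of linear values, so the markers with the highest levels weigh most, and the listed sets differ between the lines. In HL-60 7 of the 12 were listed, and the log2 of their summed level ran from 10.78 to 10.85 with DMSO, 10.97 to 10.99 with DAC and 11.02 to 11.08 with NTX-301. In MOLM-13 9 of the 12 were listed, at 13.27 to 13.34, 13.65 to 13.71 and 13.53 to 13.58. The mean of FCGR1A went from 11.50 with DMSO to 11.46 with DAC and 11.37 with NTX-301 in MOLM-13, and from 9.21 to 9.16 with NTX-301 in HL-60. That of CD86 went from 6.59 to 6.55 with DAC in HL-60. CD14, CD163 and MRC1, which define mature monocytes and macrophages, were listed in neither line. In bulk samples a change in the share of such cells and a change in RNA per cell cannot be told apart, and their part in the values of the members was not tested.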

How the data were processed

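The authors deposited 1 log2 value per gene and sample, and neither file headers nor labels name the normalization. Genes near the level of CXCL2 had a median range of 0.10 over the HL-60 samples, and those near CCL3 0.22. Whether changes of low genes are understated was not tested. The submitters' processing notes list FastQC, Trimmomatic 0.38, HISAT2, StringTie and the build hg19, with no roles. Per the labels' protocols, RNA was column-extracted and libraries were stranded total RNA. Depth and strand use in counting are not given in the sources used here.

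The 10 genes, the gene lists and the tests were chosen with earlier results of these data known. Each line was fitted with limma 3.58.1 (R 4.3.3; lmFit, eBayes with trend) over its 9 samples, 6 residual degrees of freedom, on genes whose linear value reached 1 in 3 or more samples, 17046 in HL-60 and 17475 in MOLM-13. A fit of all 18 samples on 15474 genes tested the difference of effects between lines. P-values were Benjamini-Hochberg adjusted over all genes, with a threshold of 0.05. The code was tested on simulated data. No samples held identical values.

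Named pathway genes are the 4 highest and 4 lowest differences per contrast among called genes whose groups do not overlap, and from smaller lists the 2 with the lowest adjusted p. Promoters come from RefSeq (GRCh38.p14, another build than the files' hg19), matched by gene for 9 of 10 members. Alternatives were other scalings (median centring, quantile normalization), no trend, only the groups compared, a replicate block, no filter, a pseudocount of 10 and leaving out each sample.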

Additional observations from a re-analysis of the deposited data

Results flagged for a closer look

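The effect of a drug differed between the lines, by the test of the difference itself, for 6 pairs of gene and drug. The test covered 7 members with each drug, and 40.0% of all genes were called for NTX-301 and 30.0% for DAC. For DAC 2 of the 7 were called, which is near the share of all genes. Of the 18 fits lacking 1 sample, 7 lost the TNF call and 6 the CCL3 call. With the HL-60 effect subtracted from the MOLM-13 effect on the log2 scale, the value for NTX-301 was 0.501 for NFKBIA, -0.489 for TNFAIP3, 0.316 for TNF and -0.111 for NFKB1. For DAC it was -0.389 for CCL3 and -0.316 for TNFAIP3. NFKBIA fell with NTX-301 in both lines, further in HL-60. TNFAIP3 rose with both drugs in HL-60 and did not pass in MOLM-13. The stated concentration also differed between the lines, and its part was not tested.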

How the results depend on the processing

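In HL-60 the counts of called members stayed within 1.5 times of the values given under each alternative run. The 9 pathway genes lower with DAC there became 2 without DMSO replicate 3 and 4 without DAC replicate 2 (range 2 to 8 with 1 sample left out). In MOLM-13 the 5 members higher with DAC became 2 under quantile normalization, 2 without the mean-variance trend, 3 with a pseudocount of 10 and 2 to 5 with 1 sample left out. The 0 lower became 2 after median centring and 0 to 1 with 1 sample left out, and the 7 pathway genes lower became 12 after centring and 4 to 9 with 1 sample left out. The 2 members lower with NTX-301 became 0 under quantile normalization and 1 to 3 with 1 sample left out. For NTX-301 against DAC, the 2 lower became 0 without the trend and 0 to 3 with 1 sample left out, and the 8 pathway genes became 5 with a pseudocount of 10 and 4 to 9 with 1 sample left out. Between lines, the 2 effects of NTX-301 higher in MOLM-13 became 1 without the trend, 1 with a pseudocount of 10 and 1 to 2 with 1 sample left out, and the 2 lower became 1 under quantile normalization. The 2 DAC effects lower there became 1 to 2, and the 0 higher 0 to 2, with 1 sample left out. The cause of these shifts was not tested.

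Differences that changed sign were small and uncalled in the values given, except NLRP3 with NTX-301 in MOLM-13 (0.00993 under quantile normalization). Under quantile normalization they were IL1B with DAC in HL-60 (-0.0447), CXCL2 between drugs (-0.0123), TNFAIP3 in MOLM-13 with DAC (0.016), NTX-301 (0.0281) and between drugs (0.012), and between lines NFKB1 with DAC (0.0128) and RELB with NTX-301 (-0.0114). After centring they were CXCL2 (-0.0283) and NFKB1 (-0.012) between drugs in HL-60 and TNFAIP3 between drugs in MOLM-13 (0.00455). With 1 sample left out, IL1B ranged from -0.0131 to 0.0362, CXCL2 from -0.00924 to 0.00893, TNFAIP3 in MOLM-13 from -0.0532 to 0.013 with DAC and from -0.0443 to 0.0236 between drugs, and RELB between lines from -0.0196 to 0.0338.

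The replicate numbers gave no sign of pairing over all genes. Deviations of same-numbered samples correlated at -0.057 to 0.118 in HL-60 and -0.16 to 0.11 in MOLM-13, with 1 of 9 pairs over 0.1 in each. Correlations over all genes cannot exclude pairing at single genes. In MOLM-13 replicate 3 held the lowest CXCL8 and the lowest TNF in each treatment. With the replicate number as a block, NFKBIA was called lower with DAC in MOLM-13 (members lower 1), and between lines for DAC (members higher 1). The block left 817 of 1297 calls over all genes for NTX-301 against DAC in MOLM-13.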

Other observations

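Around IL1B, the 5 inflammasome genes did not move as one. In HL-60 with NTX-301, where IL1B rose, CASP1, which cleaves the IL1B precursor, rose by 0.26 (SE 0.0321, limma adjusted p = 2.13e-05), and GSDMD, which forms the pore for release, fell by 0.31 (-0.31, SE 0.0337, limma adjusted p = 6.41e-06). With DAC, CASP1 rose by 0.14 and GSDMD fell by 0.22 (-0.22, limma adjusted p = 0.000308). NTX-301 lay above DAC for the sensor NLRP3 (0.18, limma adjusted p = 0.00149) and for CASP4 (0.14, 0.015). The CASP4 call was lost without DAC replicate 2 (0.10, limma adjusted p = 0.0735) or NTX-301 replicate 3 (0.11, 0.0722). In MOLM-13, 4 of 5 fell with DAC, where 21.2% of all genes did, among them CASP1 (-0.16) and NLRP3 (-0.09). Without DMSO replicate 2 or 3 or DAC replicate 3 the CASP1 call was lost (limma adjusted p from 0.0526 to 0.0601). The NLRP3 call was lost without DMSO replicate 2 or 3 or DAC replicate 2 or 3 (0.0558 to 0.0939) and under quantile normalization (-0.0054, 0.886). With NTX-301, 2 of 5 fell, where 24.8% of all genes did, the adaptor PYCARD by 0.26 (-0.26, limma adjusted p = 0.000246) and NLRP3 by 0.09 (-0.09, 0.0164). The NLRP3 difference with NTX-301 turned to 0.00993 under quantile normalization, and its call was lost without DMSO replicate 3 (-0.07, limma adjusted p = 0.0786) or NTX-301 replicate 2 (-0.08, 0.0565).

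A list of genes that bind or decay AU-rich transcripts, such as those of CXCL8 and TNF, also held the regulators MAPKAPK2 and DUSP1. Of its 9 genes tested in HL-60, 1 was called higher (MAPKAPK2) and 1 lower (ZFP36L2) with NTX-301. There 37.4% of all genes were called. In MOLM-13, 3 of 10 were higher and 3 lower with NTX-301, where 45.1% were called. With DAC 3 of the 10 were higher and 2 lower there, where 15.4% of all genes were called higher and 21.2% lower. ZFP36L2, a decay factor, fell with NTX-301 in HL-60 by 0.31 (-0.31, limma adjusted p = 1.42e-06) and lay below DAC by 0.32 (-0.32, 1.66e-06). In MOLM-13 it rose with both drugs, by 0.25 with DAC and 0.18 with NTX-301, and ZFP36 (tristetraprolin) rose by 0.27 with DAC. ELAVL1 (HuR), which stabilises such transcripts, fell with NTX-301 in MOLM-13 by 0.19 (-0.19, limma adjusted p = 9.77e-05). MAPKAPK2, the kinase that restrains tristetraprolin, rose in HL-60 by 0.10 with DAC and 0.16 with NTX-301 (limma adjusted p = 0.00867 and 0.000244). Of the 4 C/EBP factors in HL-60, NTX-301 raised 1 and lowered 3, where 18.3% of all genes were called higher and 19.2% lower. CEBPA fell in HL-60 with both drugs (-0.18 with DAC and -0.15 with NTX-301) and CEBPD with NTX-301 (-0.24). The granulocyte factor CEBPE rose with DAC in both lines (HL-60 0.19, MOLM-13 0.66) and with NTX-301 in MOLM-13 (0.30), and CEBPB rose with DAC in MOLM-13 (0.19), a call lost under quantile normalization (0.10, limma adjusted p = 0.125). NTX-301 lay below DAC there for CEBPE (-0.35) and CEBPB (-0.21). That CEBPB call was lost without DAC replicate 2 or 3 or NTX-301 replicate 2 or 3 (limma adjusted p from 0.0521 to 0.086). The part of these genes in the values of CXCL8, TNF and IL1B was not tested.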
